A study of Mus musculus with 24 samples.

Results

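Conventional dendritic cells (cDC) of the CD11b+ subset were sorted from the spleens of female NOD/ShiLt mice, a nonobese diabetic (NOD) strain that develops autoimmune diabetes, and their messenger RNA was measured on 6 expression arrays. The mice were 8 to 10 weeks old and had been injected 12 h earlier with CpG-A (3 arrays) or with PBS (3 arrays). The 6 arrays were chosen from the 24 of the series by their titles. Probe sets with a single gene symbol stood for 19938 genes. Of these, 11228 were above the median of an array on 3 or more of the 24 and were tested, and the rest were left out as low. The remaining arrays served to estimate the spread, and 12 of them gave comparisons. These were CD11b+ cDC of female C57BL/6 (B6) mice and CD8+ cDC of female NOD/ShiLt mice, each with 3 arrays after CpG-A and 3 after PBS, at the same age and time. All groups were sorted as CD11c+ cells from spleens digested with collagenase, so PBS-treated cells went through the same digestion and sort. The labels do not say whether the 3 arrays of a group came from separate mice or from pools, so p-values measure the spread between these arrays, which may be technical.

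CpG-A is a synthetic DNA carrying unmethylated CpG motifs, which Toll-like receptor 9 (TLR9) recognises in endosomes through MyD88. Plasmacytoid dendritic cells are the best known source of the type I interferon (IFN) that CpG-A elicits. IFN acts on other cells through the receptor IFNAR, JAK kinases and transcription factors that include IRF9. CD11b+ cDC take up antigen and present it on MHC class II to CD4+ T cells, and on activation they raise costimulatory molecules, secrete cytokines and move towards T cells through CCR7. The arrays measured the cells 12 h after an injection into the whole animal, so the direct action of CpG and that of secreted mediators cannot be told apart. Fewer cells of a type cannot be told apart from less RNA per cell either.

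Levels are deposited log2 expression values, and differences are log2 differences, CpG minus PBS, ± the standard error of the limma fit with 3 arrays per group. "Rose" and "fell" are used only for genes with a Benjamini-Hochberg adjusted p under 0.05 over all 11228 genes tested. Array medians ran from 5.79 to 5.87, and a level below them carries little signal over background. The sort markers were read first. Itgax, which encodes the CD11c of the sort, had log2 levels of 10.78, 10.84 and 10.92 after CpG, against 11.20, 11.18 and 11.15 after PBS. Its log2 difference of -0.33 ± 0.18 did not pass (adjusted p = 0.253), though it did in a fit of the 6 arrays alone (adjusted p = 0.0111). Cd8a lay at 6.99, 6.23 and 6.48 after CpG, against 5.04, 5.14 and 6.15 after PBS, with all 3 CpG arrays but only 1 PBS array above the array medians. It rose by 1.12 ± 0.26 (log2; adjusted p = 0.00314). Sirpa, which marks this subset, had log2 levels of 11.12 ± 0.10 after CpG and 11.38 ± 0.13 after PBS (SD, n = 3). Clec4a4, which encodes the DCIR2 lectin of the same cells, had 8.95 ± 0.23 after CpG and 9.08 ± 0.39 after PBS, and neither difference passed. Itgam, the gene of CD11b itself, fell by 1.41 ± 0.24 (log2) to 7.07, 7.23 and 7.82 after CpG, against 8.54, 8.93 and 8.89 after PBS.

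CpG changed 1732 genes (15.4% of those tested), of which 1089 rose (9.7%) and 643 fell (5.73%). The changes upward were the larger ones: 351 genes rose at least 2-fold (3.13%), 125 at least 4-fold and 40 at least 8-fold. Downward, 57 fell at least 2-fold (0.508%), 3 at least 4-fold and 1 at least 8-fold. Over all genes tested the median log2 difference was -0.04, and the 5th and 95th percentiles lay at -0.48 and 0.72. Of the 125 genes raised at least 4-fold, 38 had a PBS mean under the highest array median, among them Il6, Il15, Il2ra, Gzmb, Abca13 and Kdr. The size of their rises below is set against little signal and is uncertain. The CpG and PBS arrays did not overlap for 3927 genes (35%), and 36 of the called genes did overlap. The count depended on 1 array: without replicate 1 of the CpG-treated cells it was 1139, with 818 higher and 321 lower. In a fit with the replicate number as a block it was 2103.

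**Figure D1:**
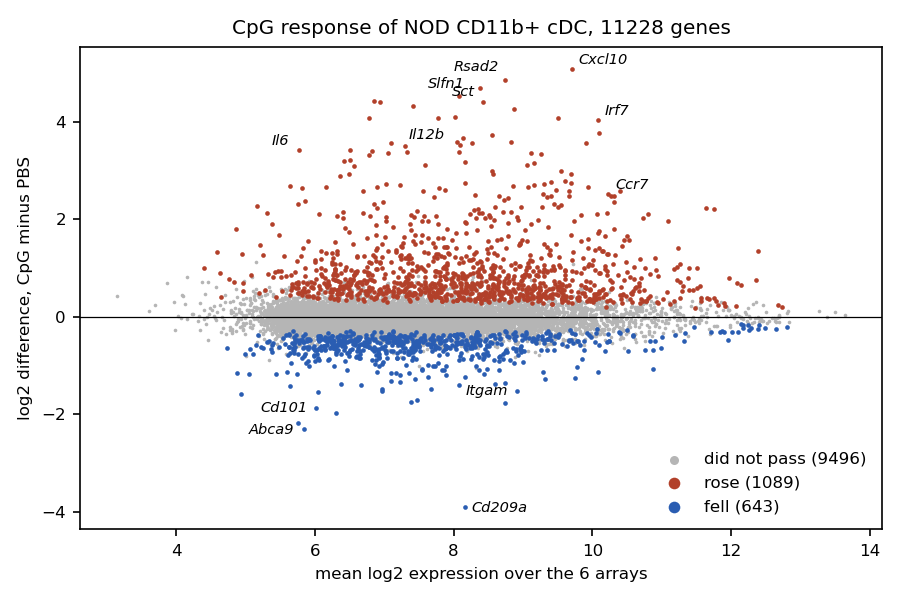
Log2 difference, CpG minus PBS (vertical axis), against the mean log2 expression over the 6 arrays of NOD CD11b+ cDC (horizontal axis), 1 point per gene tested. The 1089 genes that rose reach higher on the axis than the 643 that fell reach downward, with Cxcl10 at the top and Cd209a at the bottom.

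Genes that type I IFN induces to restrict viruses stood near the top of the response. Of 33 antiviral effectors tested, from 38 listed, 30 rose and 1 fell, and their median log2 difference was 2.48. Rsad2, which encodes viperin, an enzyme that makes a chain-terminating nucleotide, had log2 levels of 11.62, 11.29 and 10.61 after CpG, against 6.39, 6.24 and 6.34 after PBS. Rsad2 rose by 4.85 ± 0.25 on that scale or 28.9-fold (adjusted p = 7.91e-13). Ifit1, whose product binds foreign RNA at its 5′ end, lay at 11.37, 11.15 and 10.47 after CpG, against 6.86, 6.55 and 6.79 after PBS (log2). Ifit1 rose by 4.26 ± 0.23 on that scale. In both genes the 3 CpG arrays stood far above the 3 PBS arrays, with replicate 3 the lowest of the CpG arrays. The related Ifit3b, Ifit2 and Ifit3 rose by 4.53 ± 0.35, 4.08 ± 0.21 and 3.77 ± 0.25 on the log2 scale. The dynamin-like GTPase genes Mx2 and Mx1 rose by 4.09 ± 0.23 and 3.73 ± 0.20. Bst2, encoding tetherin, which holds budding virus at the cell surface, rose by 2.94 ± 0.15 (log2), and the exonuclease gene Isg20 by 3.35 ± 0.18. Summed over the list on the linear scale, signal was 55500 to 72200 after CpG, against 17400 to 19300 after PBS, so the ranges lay well apart. Isg15 and Ifi44 had no probe set with a single symbol and were not analysed here.

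Families of IFN-induced enzymes and sensors moved with them. All 7 tested members of the OAS family, which make 2′-5′ oligoadenylates that activate RNase L, or resemble those enzymes, rose, with a median log2 difference of 2.98. Oasl2 and Oas3 rose by 3.58 ± 0.16 and 3.52 ± 0.17 (log2), and Oas1a by 2.69 ± 0.17. Among 13 tested sensors of cytosolic nucleic acid 8 rose and none fell. Zbp1, a sensor of Z-form nucleic acid, rose by 3.57 ± 0.15 (log2), Ifih1, which encodes MDA5, by 2.48 ± 0.16, and Dhx58, which encodes LGP2, by 2.51 ± 0.13. The adaptor genes Mavs and Sting1 had log2 differences of -0.15 ± 0.15 and 0.28 ± 0.14, which did not pass. All 8 Schlafen genes tested rose, led by Slfn1 at 10.90, 11.09 and 10.20 after CpG, against 5.65, 5.85 and 6.61 after PBS (log2 levels). Slfn1 rose by 4.70 ± 0.21 on that scale, and Slfn4 by 4.43 ± 0.25. The 10 tested GTPases of the GBP and IRG families, which attack the vacuoles of intracellular pathogens, all rose, with a median log2 difference of 2.35. Another 8 of the list had no probe set of a single symbol. Within this family the log2 rises ran from 0.90 to 3.56, and Iigp1, Gbp5 and Gbp7 rose by 3.56 ± 0.17, 3.11 ± 0.20 and 2.99 ± 0.21. In the Ifi200 family of DNA-binding PYHIN proteins 8 of 9 tested members rose, with Ifi213 at 4.07 ± 0.30 and Ifi202b at 4.32 ± 0.23 (log2). Aim2, the inflammasome sensor of the family, had a difference of 0.32 ± 0.12, which did not pass but did with the replicate number as a block in the 6 arrays alone (adjusted p = 0.0429). Members of the OAS, GBP, Ifi200 and Schlafen families resemble each other closely, so the share of each gene in the signal of its probe set is uncertain.

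The TRIM ubiquitin ligases and PARP ADP-ribosyltransferases moved more unevenly. Of the 10 TRIM genes tested 7 rose, with a median log2 difference of 0.75. Trim30d, and Trim21, whose product is an antibody receptor inside the cell, rose by 2.58 ± 0.12 and 1.43 ± 0.14. Of 11 PARP genes 5 rose, namely Parp12, Parp14, Parp9, Parp10 and Parp11, with log2 differences of 2.47 ± 0.13, 2.29 ± 0.18, 1.99 ± 0.13, 1.56 ± 0.15 and 1.28 ± 0.15. Parp3 and Parp8 were measured at 0.33 ± 0.14 and 0.06 ± 0.12 and did not pass. A further list of 33 IFN-responsive genes of other kinds had 28 members tested, of which 27 rose, with a median log2 difference of 1.97. Ube2l6, the enzyme that hands ISG15 to its targets, rose by 3.66 ± 0.20 (log2), and Tnfsf10, which encodes the death ligand TRAIL, by 2.14 ± 0.19. Sct, which encodes the gut hormone secretin, lay at 11.06, 10.86 and 9.95 after CpG, against 6.01, 6.43 and 6.23 after PBS (log2 levels). Sct rose by 4.40 ± 0.25 on that scale (adjusted p = 3.15e-12). Its PBS arrays lay near the array medians and its CpG arrays well above them.

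**Figure D2:**
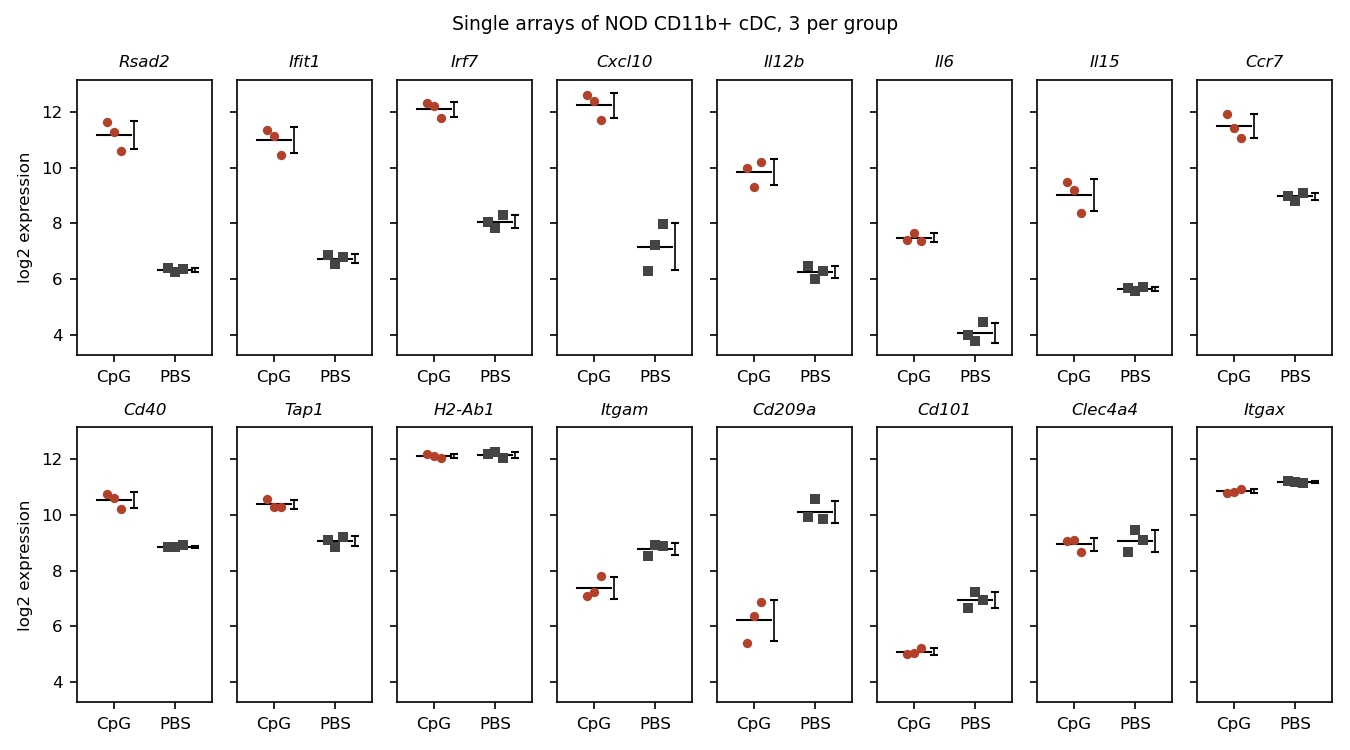
Log2 expression (vertical axis) of 16 genes on each array of NOD CD11b+ cDC, CpG left and PBS right, with the group mean as a line and the SD as an error bar (3 arrays per group). The CpG points of Rsad2, Ifit1, Irf7, Cxcl10, Il12b and Il6 lie far above the PBS points, those of Cd209a and Itgam lie below, and those of H2-Ab1, Clec4a4 and Itgax lie close to them.

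Promoter sequences from RefSeq (build GRCm38.p6), 250 bases before to 50 after a gene's start, were available for 8980 of the genes tested and were searched on both strands. The core of the IFN-stimulated response element (ISRE), which IRF proteins bind, was taken as GAAA, any 2 bases and GAAA. The core was present for 34.7% (33 of 95) of the genes that rose at least 4-fold, for 8.15% of those that rose 2-fold to under 4-fold and for 5.47% of those that rose less. It was present for 3.28% of the genes not called, for 2.56% of those that fell less than 2-fold and for 10.4% (5 of 48) of those that fell at least 2-fold. Among all genes tested 3.86% held it, and 3.44% of all 32851 windows given did. The kB letters (GGGA, any 2 bases and TTCC, bound by NF-kB) were found for 7.37% of the genes that rose at least 4-fold and for 1.73% of all genes tested. Matches of different motifs may overlap and each was counted. These shares describe the letters in the windows and no binding was measured. Sequences of 5 raised genes are shown because they carry these letters in different combinations. Matches are in capitals and sequences run 5′ to 3′ along the gene's strand, so a match on the other strand appears as its reverse complement. The window of Cxcl10 (chr5:92348840-92349139, minus strand) has an ISRE core and a kB match, and that of Rsad2 (chr12:26456403-26456702, minus strand) 1 ISRE core. The window of Ifit1 (chr19:34640639-34640938, plus strand) has an ISRE core at 2 places, that of Gbp5 (chr3:142496684-142496983, plus strand) ISRE and kB matches, and that of Il6 (chr5:30012864-30013163, plus strand) a kB match.

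Cxcl10: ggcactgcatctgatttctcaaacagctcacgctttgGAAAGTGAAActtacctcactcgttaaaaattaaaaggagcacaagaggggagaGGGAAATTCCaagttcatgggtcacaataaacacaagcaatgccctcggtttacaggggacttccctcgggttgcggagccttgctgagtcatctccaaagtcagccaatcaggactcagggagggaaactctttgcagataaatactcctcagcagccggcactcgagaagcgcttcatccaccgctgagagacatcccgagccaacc
Rsad2: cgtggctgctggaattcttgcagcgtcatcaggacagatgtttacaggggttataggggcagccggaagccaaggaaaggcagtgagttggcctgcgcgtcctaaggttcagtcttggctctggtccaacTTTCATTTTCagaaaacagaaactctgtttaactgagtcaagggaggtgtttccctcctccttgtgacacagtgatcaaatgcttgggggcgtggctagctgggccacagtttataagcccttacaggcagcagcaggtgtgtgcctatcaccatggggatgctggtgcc
Ifit1: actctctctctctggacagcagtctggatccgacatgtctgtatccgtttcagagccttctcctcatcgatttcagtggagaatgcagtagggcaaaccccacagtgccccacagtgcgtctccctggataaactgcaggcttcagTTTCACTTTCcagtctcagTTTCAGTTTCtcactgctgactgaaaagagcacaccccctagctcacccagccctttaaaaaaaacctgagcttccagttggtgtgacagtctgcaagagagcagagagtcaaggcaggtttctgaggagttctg
Gbp5: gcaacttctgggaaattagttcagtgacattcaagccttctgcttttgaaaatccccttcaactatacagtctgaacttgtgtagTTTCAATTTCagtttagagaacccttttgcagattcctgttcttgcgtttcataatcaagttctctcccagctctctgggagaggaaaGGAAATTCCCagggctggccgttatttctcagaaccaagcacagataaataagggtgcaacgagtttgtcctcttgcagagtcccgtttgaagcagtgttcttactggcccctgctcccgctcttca
Il6: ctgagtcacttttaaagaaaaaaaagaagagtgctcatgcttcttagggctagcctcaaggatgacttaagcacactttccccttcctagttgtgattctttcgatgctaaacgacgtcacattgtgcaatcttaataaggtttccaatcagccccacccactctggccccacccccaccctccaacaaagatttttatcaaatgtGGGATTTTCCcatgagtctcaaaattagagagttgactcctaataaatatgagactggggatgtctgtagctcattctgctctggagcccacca

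Of the genes that carry the IFN signal, 8 of 21 tested receptors, kinases, STATs and IRFs rose and 1 fell, with a median log2 difference of 0.26. Irf7, the transcription factor that amplifies type I IFN production, had log2 levels of 12.31, 12.20 and 11.78 after CpG, against 8.03, 7.84 and 8.31 after PBS. Irf7 rose by 4.04 ± 0.14 on that scale (adjusted p = 2.64e-15). Stat2, Irf9 and Irf1 rose by 2.13 ± 0.15, 1.00 ± 0.11 and 1.17 ± 0.14 (log2), whereas the receptor gene Ifnar1 was measured at -0.15 ± 0.10. Of the 6 tested interferon genes none rose in the limma fit and 1 fell, with a median log2 difference of -0.28. At an unadjusted p under 0.05, 0 were higher and 3 lower, beside 2998 of all 11228 genes in either direction. The mean log2 level of these interferon genes was 5.89 after CpG and 6.04 after PBS, near the array medians. The 1 that fell was Ifnk, encoding IFN-kappa, by 0.66 ± 0.21 (log2; adjusted p = 0.0313), at levels near or under the array medians. Its call was lost without replicate 1 or 2 of the CpG arrays or 1 or 3 of the PBS arrays (adjusted p up to 0.217). Ifng, encoding IFN-gamma, had log2 levels of 5.21, 5.61 and 5.37 after CpG, against 4.71, 5.05 and 5.12 after PBS, all below the array medians. Its log2 difference of 0.44 ± 0.22 did not pass, but did with the replicate block in the 6 arrays alone (adjusted p = 0.04). Ifnb1 and Ifna4 did not pass the filter on low values. Feedback genes followed the IFN signal in part, with 10 of 22 higher and 2 lower (median log2 difference 0.39). Usp18, which removes ISG15 and blocks IFNAR2, rose by 2.66 ± 0.13 (log2), and the cytokine signalling inhibitors Socs2 and Socs1 by 2.05 ± 0.21 and 0.56 ± 0.14.

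In the TLR9 pathway 6 of 21 tested genes rose and 1 fell, with a median log2 difference of 0.09. Tlr9 itself had log2 levels of 10.99, 10.94 and 10.58 after CpG, against 9.81, 9.59 and 9.86 after PBS. Tlr9 rose by 1.09 ± 0.11 on that scale (adjusted p = 8.51e-08). Unc93b1, which brings TLR9 to endosomes, and the adaptor Myd88 were measured at log2 differences of 0.22 ± 0.13 and 0.33 ± 0.12, which did not pass in the fit of all arrays. Myd88 did pass in a fit of the 6 arrays alone (adjusted p = 0.0423). Tlr3, which senses double-stranded RNA, rose by 1.11 ± 0.22 (log2). Among genes of NF-kB, the other arm of TLR signalling, 11 of 15 rose and none fell, and the log2 differences ran from 0.16 to 0.95 (median 0.48). Relb and Bcl3 rose by 0.95 ± 0.15 and 0.70 ± 0.13 (log2), the kinase gene Map3k8 by 0.77 ± 0.17, and the inhibitor gene Nfkbib by 0.66 ± 0.13. Rel was measured at 0.25 ± 0.17.

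Among cytokine genes 9 of 15 tested rose and none fell (median log2 difference 0.79), and 3 of them rose more than 8-fold. Il12b, the p40 subunit of IL-12 and IL-23, lay at 10.00, 9.31 and 10.21 after CpG, against 6.46, 6.02 and 6.28 after PBS (log2 levels). Il12b rose by 3.59 ± 0.17 on that scale (adjusted p = 3.54e-13). Il6, which encodes a cytokine of B cell and T helper responses, had log2 levels of 7.40, 7.66 and 7.38 after CpG, against 3.97, 3.77 and 4.45 after PBS. Il6 rose by 3.42 ± 0.21 on that scale, against PBS levels under the array medians. Il15, which sustains NK cells and memory CD8+ T cells, lay at 9.47, 9.19 and 8.38 after CpG, against 5.66, 5.55 and 5.72 after PBS (log2). Il15 rose by 3.37 ± 0.20 on that scale. For each of these genes the lowest CpG array lay far above the highest PBS array. Il27 and Tnf rose less, by 1.43 ± 0.18 and 1.27 ± 0.21 (log2), and so did 2 genes of antagonists, Il1rn with 1.62 ± 0.18 and Il18bp with 1.71 ± 0.17. Il1b was abundant in both groups, with log2 levels of 9.97 ± 0.11 after CpG and 10.04 ± 0.23 after PBS (SD, n = 3), and its difference of -0.07 ± 0.24 did not pass. Il12a, Il23a and Il10 did not pass the filter on low values.

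Receptors for IL-2 and IL-15 rose together. Il2ra, the alpha chain of the IL-2 receptor, had log2 levels of 8.32, 7.91 and 7.84 after CpG, against 5.06, 4.21 and 5.20 after PBS. Il2ra rose by 3.20 ± 0.23 on that scale, Il15ra by 1.80 ± 0.23, and the shared beta chain Il2rb by 1.73 ± 0.31. Il2rb, and the chemokine gene Ccl5 given below, also count among the NK cell markers. Which cells carried their transcripts was not tested. Over the 23 cytokine receptors tested 8 rose and 3 fell, with a median log2 difference of 0.01. Il21r rose by 0.93 ± 0.15 (log2), whereas Tgfbr1 and Il17ra, which encode receptor chains for TGF-beta and IL-17, fell by 0.76 ± 0.12 and 0.73 ± 0.13. Of 18 chemokine genes 9 rose and 2 fell (median log2 difference 0.86). Cxcl10, an IFN-induced ligand of CXCR3 that attracts T and NK cells, showed the highest rise of all genes tested. Its log2 levels were 12.61, 12.39 and 11.73 after CpG, against 6.29, 7.23 and 7.96 after PBS. Cxcl10 rose by 5.08 ± 0.28 on that scale or 33.8-fold (adjusted p = 2.12e-12). The other CXCR3 ligands Cxcl11 and Cxcl9 rose by 2.70 ± 0.25 and 2.57 ± 0.16 (log2), and the monocyte chemokine gene Ccl12 by 2.28 ± 0.22. Ccl4 and Ccl5, chemokines that attract T cells and monocytes, rose by 1.98 ± 0.32 and 1.35 ± 0.084 (log2). Ccl22, a ligand of CCR4, and Cxcl1 were measured at -0.11 ± 0.19 and 0.04 ± 0.14.

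Genes of dendritic cell maturation and migration rose in 16 of 22 tested cases and fell in none, with a median log2 difference of 1.00. Ccr7, the receptor that guides dendritic cells to T cell zones, had log2 levels of 11.94, 11.44 and 11.08 after CpG, against 8.99, 8.82 and 9.09 after PBS. Ccr7 rose by 2.52 ± 0.19 on that scale (adjusted p = 8.25e-10). Fscn1, which encodes the actin bundler fascin of mature dendritic cells, rose by 2.35 ± 0.21 (log2), and the maturation marker Cd83 by 1.21 ± 0.10. Ccr2, by which monocyte-related cells follow CCL2, fell by 1.48 ± 0.30 (log2), to 6.78, 6.87 and 7.16 after CpG, against 8.47, 8.25 and 8.53 after PBS. Among 17 chemokine and migration receptors 3 rose and 2 fell, with a median of 0.04, and S1pr1 was at -0.22 ± 0.39. Costimulation genes split: 8 of 17 rose, none fell, and the median log2 difference was 0.52. Cd40, the receptor for T cell help, lay at 10.77, 10.61 and 10.21 after CpG, against 8.84, 8.84 and 8.90 after PBS (log2). Cd40 rose by 1.67 ± 0.12 on that scale. Cd86 rose by 0.57 ± 0.13 (log2), Cd274, which encodes the inhibitory ligand PD-L1, by 1.16 ± 0.19, Icosl by 0.97 ± 0.16, and Cd200 by 2.06 ± 0.20. Cd80 was measured at 0.30 ± 0.16 and Pdcd1lg2, which encodes PD-L2, at -0.09 ± 0.19. In the TNF superfamily 9 of 15 genes rose (median log2 difference 0.56). Among them were Tnfrsf4, which encodes OX40, with 1.49 ± 0.19, Tnfsf15 with 1.24 ± 0.20 and Tnfsf9, the ligand of 4-1BB, with 0.91 ± 0.17.

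**Figure D3:**
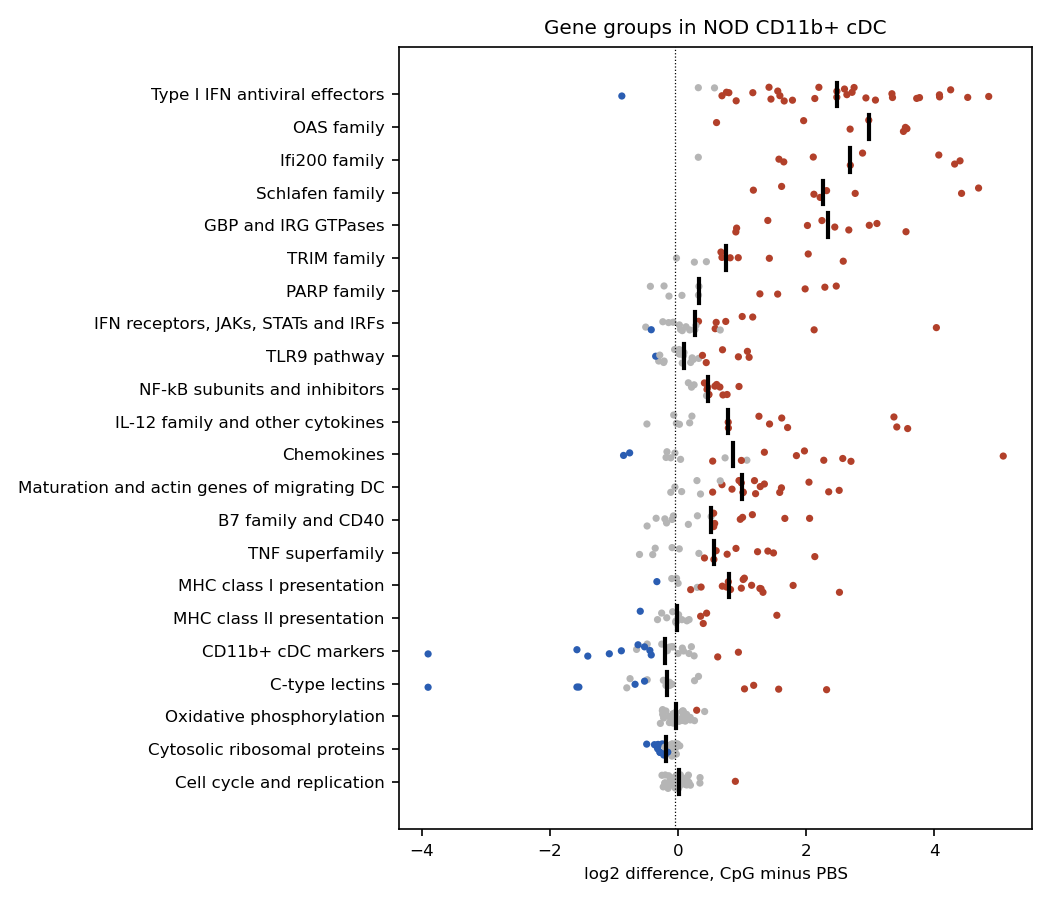
Log2 difference, CpG minus PBS (horizontal axis), of each tested member of 22 gene groups (rows) in NOD CD11b+ cDC. Each point is a gene, red where it rose, blue where it fell and grey where it did not pass. The black bar is the median of the group and the dotted line the median of all genes tested (-0.04). The medians of the antiviral, OAS, Ifi200, Schlafen and GBP groups lie above 2, and those of MHC class II, oxidative phosphorylation and cell cycle genes lie near the dotted line.

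The 2 arms of antigen presentation differed in their counts. In the class I pathway 15 of 20 tested genes rose and 1 fell, with a median log2 difference of 0.80, and H2-K1 and H2-D1 had no probe set of a single symbol. Tap1, a subunit of the peptide transporter, had log2 levels of 10.56, 10.30 and 10.28 after CpG, against 9.10, 8.85 and 9.20 after PBS. Tap1 rose by 1.33 ± 0.13 on that scale. Nlrc5, the transactivator of class I genes, rose by 1.80 ± 0.14 (log2), the immunoproteasome subunit gene Psmb10 by 1.28 ± 0.12, and Psme2 of the proteasome activator by 1.02 ± 0.11. The nonclassical class I gene H2-T24 rose by 2.52 ± 0.15. In the class II pathway 4 of 16 genes rose and 1 fell, with a median log2 difference of -0.01. H2-Ab1, the beta chain of I-A, lay at 12.19, 12.13 and 12.06 after CpG, against 12.18, 12.27 and 12.04 after PBS (log2), and its difference of -0.03 ± 0.073 did not pass. H2-Aa and the invariant chain gene Cd74 were at 0.01 ± 0.072 and -0.03 ± 0.043, and Ciita, the class II transactivator, at -0.25 ± 0.20 (log2). These genes lay near the top of the array's range, at log2 levels of 11.93 ± 0.063 after CpG and 11.92 ± 0.12 after PBS for H2-Aa (SD, n = 3). The members that rose were the endosomal protease genes Lgmn with 1.54 ± 0.20 and Ctss with 0.40 ± 0.066 (log2), Ifi30, a thiol reductase, with 0.35 ± 0.084, and H2-Eb2, a class II beta chain gene, with 0.45 ± 0.15. H2-Eb2 (adjusted p = 0.0442) did not pass with quantile normalization (adjusted p = 0.123), among other settings. H2-Ob, of the H2-O complex that restrains peptide loading, fell by 0.59 ± 0.16 (log2), a call lost without replicate 1 of the CpG arrays (adjusted p = 0.0835). Of 31 constitutive proteasome genes 8 rose and none fell (median log2 difference 0.25), with Psma5 at 0.87 ± 0.11. Of 24 lysosomal genes 8 rose and 2 fell, among them Cst7, which encodes cystatin F, with 1.66 ± 0.24, and Cd63 with 1.59 ± 0.18 (log2).

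Genes by which the subset is recognised fell more often than they rose: 9 of 24 tested markers fell and 2 rose, with a median log2 difference of -0.21. Cd209a, which encodes a DC-SIGN homologue, showed the largest fall of all genes tested. Its log2 levels were 5.39, 6.38 and 6.86 after CpG, against 9.91, 10.56 and 9.87 after PBS. Cd209a fell by 3.90 ± 0.37 on that scale (adjusted p = 2.66e-08). Every CpG array was lower than every PBS array, by a 14.9-fold difference of means. Clec10a, a galactose lectin, and Cd209d fell by 1.58 ± 0.28 and 1.55 ± 0.22 on the log2 scale, and Epcam by 0.88 ± 0.13. Notch2, a receptor needed by part of this subset, and Clec4a3 were measured at -0.08 ± 0.12 and -0.09 ± 0.30 and did not pass. Over 20 C-type lectins 4 rose and 5 fell, and the early activation antigen Cd69 rose by 2.32 ± 0.50 (log2) and Ly75, which encodes the uptake receptor DEC-205, by 1.57 ± 0.22. Of 22 markers of the CD8+ subset 6 rose and 6 fell (median -0.20). Cd8a and Tlr3, given above, and Ly75 were among the 6 that rose, and another 6 fell. Of the members that did not pass, Clec9a, Batf3 and Itgae were measured at log2 differences of -0.13 ± 0.17, 0.12 ± 0.099 and -0.16 ± 0.26. Clec9a lay at 8.08, 7.53 and 7.62 after CpG, against 7.83, 7.77 and 8.02 after PBS (log2 levels). Among Fc receptors and related families 5 of 25 rose and 3 fell. Fcgr1, the high-affinity IgG receptor, rose by 2.08 ± 0.20 (log2), and Siglec1, a sialic acid lectin induced by IFN, by 2.03 ± 0.16, whereas the inhibitory Cd33 fell by 1.31 ± 0.17.

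In 2 groups of cell death and inflammasome genes some rose and none fell, namely 9 of 17 death receptor and necroptosis genes (median log2 difference 0.73) and 9 of 24 genes of the IL-1 family and inflammasome (median 0.27). Casp4, the caspase that mouse cells use against cytosolic lipopolysaccharide, rose by 1.98 ± 0.19 (log2), the pore-forming Gsdmd by 0.91 ± 0.12, and Mlkl, the executioner of necroptosis, by 1.67 ± 0.22. The death receptor gene Fas rose by 1.40 ± 0.26 and the caspase-8 inhibitor Cflar by 1.41 ± 0.16 (log2), while Ripk3, the kinase upstream of MLKL, was at 0.26 ± 0.13. In the BCL-2 family 3 of 14 rose and 1 fell, and the pro-death genes Bcl2l11 and Bmf moved apart, by 1.23 ± 0.16 and -0.84 ± 0.16 (log2). Of 21 genes linked to tolerance 10 rose and 2 fell. Lgals9 and the receptor kinase gene Axl rose by 2.14 ± 0.20 and 1.97 ± 0.25 (log2), and Entpd1, which encodes the ATP-degrading CD39, fell by 1.00 ± 0.24. Ido1 and Nos2 did not pass the filter on low values. Candidates of mapped NOD diabetes regions had 12 members tested, of which 6 rose and 1 fell. Beside Il2ra and Fcgr1, Icos rose by 1.19 ± 0.14 (log2). Cd101, an inhibitory surface protein, fell by 1.86 ± 0.15 to 5.00, 5.04 and 5.23 after CpG, against 6.66, 7.24 and 6.95 after PBS. All 3 CpG arrays of Cd101 lay below all 3 PBS arrays.

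Oxidative phosphorylation, mitochondrial ribosomal, cell cycle, cholesterol and glycolysis genes had medians near that of all genes (log2 differences of -0.09 to 0.01). Of 39 oxidative phosphorylation genes 1 rose and none fell (median log2 difference -0.03). Of 34 mitochondrial ribosomal genes none passed limma's test, and 6 had an unadjusted p under 0.05, beside 2998 of all 11228 genes. Of 41 cell cycle genes 1 rose, the spindle factor gene Tpx2 with 0.90 ± 0.20 (log2). The proliferation marker Mki67 had log2 levels of 7.87 ± 0.12 after CpG and 8.07 ± 0.21 after PBS (SD, n = 3) and did not pass. Cytosolic ribosomal protein genes fell in 15 of 28 tested cases and rose in none, but by little, with log2 differences from -0.49 to 0.03 (median -0.19). Rpl4 and Rps2 fell by 0.31 ± 0.064 and 0.33 ± 0.076. Glycolysis genes were divided, 4 higher and 4 lower of 23. Pfkfb3, which makes the activator of phosphofructokinase, rose by 1.56 ± 0.20 (log2) and the hexose transporter gene Slc2a6 by 1.32 ± 0.16. Aldoc fell by 0.94 ± 0.24, and Ldha and Pkm were at -0.09 ± 0.16 and -0.02 ± 0.11. Nampt, the enzyme that salvages NAD, rose by 1.86 ± 0.14 (log2), and Gch1, which starts tetrahydrobiopterin synthesis, by 1.23 ± 0.18. In the prostaglandin and leukotriene pathway 2 of 16 genes rose and 4 fell, and Cysltr1, a leukotriene receptor gene, fell by 0.76 ± 0.17 (log2). Of 27 cholesterol genes 2 rose and 3 fell, and Nr1h3, the sterol sensor LXR-alpha, rose by 1.08 ± 0.27 (log2). Cfb, complement factor B, had log2 levels of 10.99, 10.78 and 10.43 after CpG, against 7.52, 7.35 and 7.90 after PBS. Cfb rose by 3.14 ± 0.18 on that scale (adjusted p = 2.95e-12).

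Markers of other spleen cells that could enter the sort were read beside these results. Of 22 NK cell markers tested 8 rose and none fell (median log2 difference 0.52). Their mean log2 level was 6.87 after CpG, against 6.09 after PBS. Their summed linear signal, in which the brightest genes weigh most, was 14100 to 15100 after CpG, against 8890 to 9070 after PBS. Ncr1, which encodes the NK receptor NKp46, had log2 levels of 4.92, 5.81 and 6.06 after CpG, against 4.15, 4.39 and 4.39 after PBS. Ncr1 rose by 1.29 ± 0.27 on that scale. Klrb1c, which encodes NK1.1 in B6, lay below the array medians in both groups, with 3.59, 3.78 and 3.63 after CpG, against 3.64, 3.49 and 3.54 after PBS. Gzmb, a granule protease gene, had log2 levels of 8.08, 8.40 and 8.18 after CpG, against 5.06, 4.54 and 4.80 after PBS. Gzmb rose by 3.42 ± 0.29 on that scale and Gzma by 3.32 ± 0.36, and 7 of 10 granule genes rose in all. In T cell markers 0 of 10 rose and 1 fell, in B cell markers 0 of 15 and 1. In plasma cell markers none of 5 changed, and in neutrophil markers none of 5, while Ly6g, Mpo and Elane were under the filter. B cell genes varied between arrays within both groups, with summed linear signal of 2830 to 6210 after CpG, against 3310 to 6940 after PBS. Cd79a, of the B cell receptor, lay at 7.26, 8.70 and 8.96 after CpG, against 7.46, 8.34 and 9.31 after PBS (log2 levels). Red pulp macrophage markers rose in 4 of 15 cases and fell in 1, with summed linear signal of 6230 to 6340 after CpG, against 5390 to 5560 after PBS. Those that rose were Axl and Siglec1, given above, and Spic and Timd4, by 1.52 ± 0.24 and 1.11 ± 0.20 (log2). The 1 that fell was Adgre1. The other 10 did not pass, C1qb and C1qc among them, and the median log2 difference of the list was 0.75. Markers of plasmacytoid dendritic cells rose in 4 of 11 cases, among them Bst2, described above with the antiviral genes. The other 7 did not pass, and the median log2 difference was 0.36. Their summed linear signal, in which the brightest genes weigh most, was 4530 to 5160 after CpG, against 1940 to 2620 after PBS. Siglech, which defines these cells, lay at 5.77, 5.52 and 5.32 after CpG, against 5.79, 5.62 and 5.98 after PBS (log2 levels), a difference of -0.26 ± 0.19. Of 7 monocyte markers 1 rose and 2 fell, Ccr2 and Itgam, and the median log2 difference was -0.27. Their mean log2 level was 7.87 after CpG, against 8.31 after PBS. The summed linear signal, in which the genes of highest level weigh most, went the other way, with 5030 to 5490 after CpG, against 3560 to 4100 after PBS. Of 4 erythroid and platelet markers 1 rose, and of 5 stromal and endothelial markers 1 rose, which was Kdr. Kdr had log2 levels of 8.75, 8.39 and 8.40 after CpG, against 5.19, 5.05 and 5.12 after PBS, while the endothelial marker Pecam1 was at -0.23 ± 0.16. The part of such cells in the results was not tested. Immediate-early genes that tissue digestion can induce rose in 4 of 26 cases and fell in 1 (median log2 difference -0.08), and Jun was at -0.05 ± 0.23.

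To ask whether the response depended on the strain, the CpG difference in NOD CD11b+ cDC was compared with that in B6 CD11b+ cDC by an interaction term. It was called for 492 of 11228 genes (4.38%), 270 with a higher difference in NOD (2.4%) and 222 with a lower one (1.98%). With the replicate number as a block the count was 766. With each array centred on its median 219 were higher and 293 lower. That centring moved the median interaction of all genes from a log2 value of 0.05 to -0.06, so small interactions depend on it. Without 1 array it was 297 (replicate 2 of CpG-treated NOD cells), 314 (replicate 1 of CpG-treated B6 cells) or 316 (replicate 1 of PBS-treated B6 cells). In B6 CD11b+ cDC taken alone CpG called 4364 genes (38.9%), 1782 higher (15.9%) and 2582 lower (23%). Of the genes that rose in NOD 936 also rose in B6, which is 86.0% of the NOD and 52.5% of the B6 genes. Of those that fell in NOD 525 also fell in B6, 81.6% and 20.3%. Among the NOD genes that rose 5 fell in B6, and among those that fell 7 rose in B6. Of the 270 genes with a higher difference in NOD, 241 fell in B6. Of these 241, 195 did not pass in NOD and 41 fell in both strains, so most of the 270 are weaker falls or none in NOD. Of the 222 with a lower difference, 135 rose in B6 and did not pass in NOD. The antiviral effectors had a median log2 difference of 2.48 in NOD and 1.96 in B6, with 30 and 30 of 33 raised. Taken gene by gene, their median interaction was smaller than the gap between these medians, at 0.18 (log2). The interaction was called for 0 of them as higher and 0 as lower in NOD by limma, and 8 had an unadjusted p under 0.05. Among genes with a higher difference in NOD, Ifi202b had the largest interaction, with a CpG difference (log2) of 4.32 ± 0.23 in NOD and 0.03 ± 0.23 in B6, an interaction of 4.29 ± 0.32 (adjusted p = 2.06e-08). Melk, a mitotic kinase gene, had 3.11 ± 0.16 in NOD and 0.29 ± 0.16 in B6. AY761185, known here by its cDNA name only, had 3.22 ± 0.19 in NOD and 1.01 ± 0.19 in B6. Ly6e, an IFN-induced surface protein, had 2.22 ± 0.19 in NOD and 0.57 ± 0.19 in B6. Mmp12, an elastase gene, fell by 1.13 ± 0.19 in NOD on the log2 scale and its difference in B6 was -3.49 ± 0.19. Inpp4b, a phosphoinositide phosphatase gene, rose by 1.30 ± 0.18 in NOD, against -1.08 ± 0.18 in B6 (log2). Whether NOD sequence variants under a probe affect such levels was not tested.

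The genes with a lower CpG difference in NOD included many NK cell and granule genes. Of the 22 NK cell markers 15 and of the 10 granule genes 6 had a lower difference in NOD, against 1.98% of all genes. Some genes are on both lists, so these were 20 of 29 genes. Of the 20, 11 lay under the lowest array median on all 6 NOD arrays, so for them a lower difference is set against background. The median CpG differences (log2) of the NK and granule lists were 0.52 and 0.79 in NOD, and 2.60 and 3.58 in B6. Gzmb rose by 3.42 ± 0.29 in NOD and its log2 difference was 6.50 ± 0.29 in B6, an interaction of -3.08 ± 0.41 (adjusted p = 6.96e-05). Prf1, the pore-forming perforin, had 0.86 ± 0.22 in NOD and 3.94 ± 0.22 in B6, and Ifng 0.44 ± 0.22 in NOD and 3.81 ± 0.22 in B6 (log2 differences). The T cell and NK marker Thy1 had 0.10 ± 0.25 in NOD and 3.11 ± 0.25 in B6, and Klrb1c had 0.11 ± 0.28 in NOD and 3.42 ± 0.28 in B6. AA467197, an IFN-responsive gene, rose by 2.14 ± 0.29 in NOD, against 6.05 ± 0.29 in B6, and Csta2, a cystatin gene, was at 0.42 ± 0.22 in NOD, against 4.75 ± 0.22 in B6. Csta2, Ifng and Klrb1c lay under the array medians on all 6 NOD arrays. Such genes passed the filter through arrays of other groups, and the interaction sets those against little signal. Of the 492 genes called 58 were of this kind, 55 of them with a lower difference in NOD, and with the filter at 12 arrays 367 genes were called (229 higher and 138 lower). Other markers moved in the same direction, with a lower difference in NOD for 4 of 10 T cell markers and 3 of 11 markers of plasmacytoid dendritic cells, and a higher one for none. Of the T cell markers 5 rose in B6. Whether NK cells in the sorted cells, or the CD11b+ cDC themselves, carried these transcripts was not tested. For the class II pathway 8 of 16 genes had a higher CpG difference in NOD and 0 a lower one, and their median log2 difference was -0.01 in NOD and -0.34 in B6. Among the CD11b+ cDC markers 5 were higher and 0 lower in the interaction, with medians of -0.21 in NOD and -0.94 in B6.

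**Figure D4:**
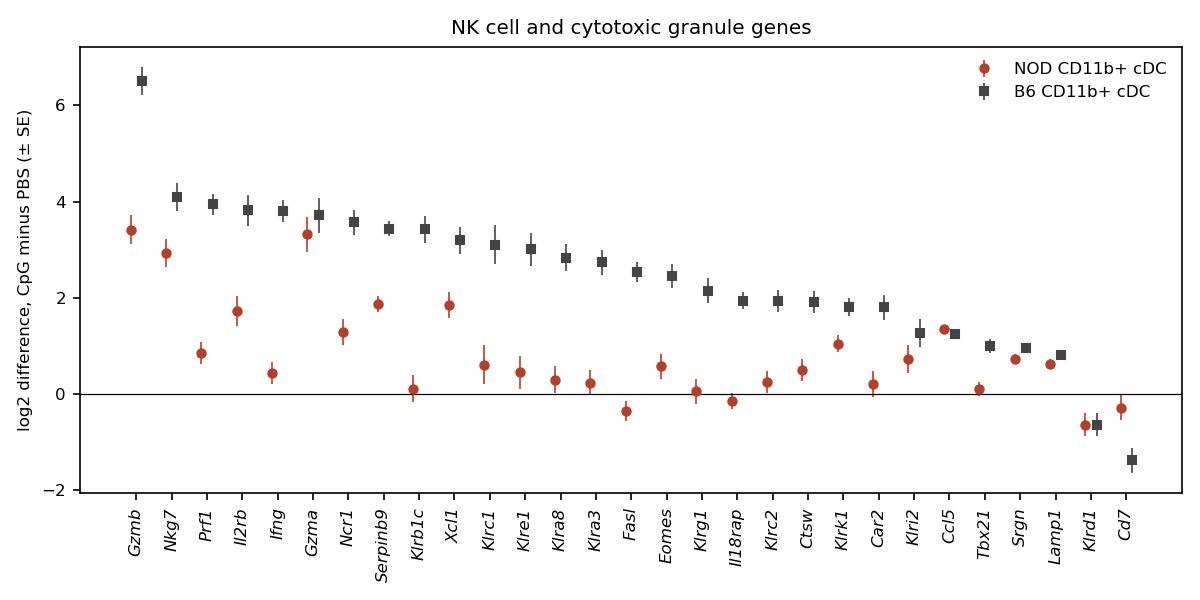
Log2 difference, CpG minus PBS, ± SE (vertical axis) of the 29 tested NK cell and cytotoxic granule genes (horizontal axis) in NOD CD11b+ cDC (red circles) and B6 CD11b+ cDC (grey squares). Most squares lie well above the circles, with exceptions such as Gzma and Ccl5, whose circles and squares stand at about the same height.

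The same comparison was made between the subsets within NOD, with the CD8+ cDC, which cross-present antigen on MHC class I, as the other subset. The interaction was called for 764 genes (6.8%), 463 with a higher CpG difference in CD11b+ cDC (4.12%) and 301 with a lower one (2.68%). This count rests on single arrays. It was 479 without replicate 3 of PBS-treated CD8+ cDC, and 482 without replicate 2 of CpG-treated CD11b+ cDC. It was 485 without replicate 1 and 1676 without replicate 3 of CpG-treated CD8+ cDC. In a fit with the replicate number as a block it was 1141. With each array centred on its median 348 were higher and 441 lower, and the median interaction of all genes moved from 0.07 to -0.06 (log2). In NOD CD8+ cDC alone CpG called 4567 genes (40.7%), 1700 higher (15.1%) and 2867 lower (25.5%). Of the genes that rose in CD11b+ cDC 827 also rose in CD8+ cDC, which is 75.9% and 48.6% of the 2 sets, and of those that fell 454 did, 70.6% and 15.8%. Of the 463 genes with a higher difference in CD11b+ cDC, 350 fell in CD8+ cDC and 128 rose in CD11b+ cDC, and a gene can be in both counts. Of the 301 with a lower difference, 274 rose in CD8+ cDC. Il12b rose by 3.59 ± 0.17 in CD11b+ cDC and its log2 difference in CD8+ cDC was 1.54 ± 0.17, an interaction of 2.04 ± 0.24 (adjusted p = 1.35e-05). Cxcl9 had 2.57 ± 0.16 in CD11b+ and 0.54 ± 0.16 in CD8+ cDC (log2 differences). Gbp3 had 2.02 ± 0.17 in CD11b+ and 0.13 ± 0.17 in CD8+ cDC, and Gbp2b had 2.67 ± 0.20 in CD11b+ and 0.84 ± 0.20 in CD8+ cDC. Abca13, a lipid transporter gene, rose by 3.49 ± 0.24 in CD11b+ cDC, against 0.68 ± 0.24 in CD8+ cDC. Tlr3 had 1.11 ± 0.22 in CD11b+ cDC and -0.94 ± 0.22 in CD8+ cDC. Il1b was at -0.07 ± 0.24 in CD11b+ cDC, and its log2 difference in CD8+ cDC was -1.91 ± 0.24. The lectin genes Clec4b2 and Cd207 were at -0.23 ± 0.17 and 0.32 ± 0.24 in CD11b+ cDC, against -3.41 ± 0.17 and -2.00 ± 0.24 in CD8+ cDC, with low levels in CD11b+ cDC throughout.

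Among genes with a lower CpG difference in CD11b+ than in CD8+ cDC, Ifit3 rose by 3.77 ± 0.25 in CD11b+ cDC and its log2 difference was 6.10 ± 0.25 in CD8+ cDC, an interaction of -2.33 ± 0.35 (adjusted p = 0.000253). Rtp4, an IFN-induced inhibitor of RNA viruses, had 2.75 ± 0.24 in CD11b+ and 4.97 ± 0.24 in CD8+ cDC. Il23r, the receptor chain for IL-23, rose by 0.99 ± 0.22 in CD11b+ cDC, against 3.72 ± 0.22 in CD8+ cDC, and Pdcd1lg2 was at -0.09 ± 0.19, against 1.95 ± 0.19. Dgkk, a diacylglycerol kinase gene, rose by 0.72 ± 0.17 in CD11b+ cDC, against 4.51 ± 0.17 in CD8+ cDC. Gclc, which starts glutathione synthesis, was at -0.31 ± 0.16, against 1.89 ± 0.16 (log2 differences). Over the antiviral effectors the median log2 difference was 2.48 in CD11b+ cDC and 2.30 in CD8+ cDC, and the interaction was called as lower for 8 of 33 and as higher for 1. The direction differed between other IFN-induced lists, with 0 higher and 2 lower in the OAS family, 4 higher and 1 lower in the Ifi200 family, 2 and 0 among GBP and IRG GTPases, 5 and 2 among other IFN-responsive genes, and 3 and 3 among cytosolic sensors. Over the cytokines it was called as higher for 3 of 15 and as lower for 1. Abca9, another lipid transporter gene, fell by 2.30 ± 0.15 in CD11b+ cDC, to 4.55, 4.62 and 4.92 after CpG, against 7.13, 7.19 and 6.67 after PBS. Its log2 difference in CD8+ cDC was -0.46 ± 0.15. The comparisons with B6 CD11b+ cDC and with NOD CD8+ cDC share the 6 arrays of NOD CD11b+ cDC and are not independent of each other.

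**Figure D5:**
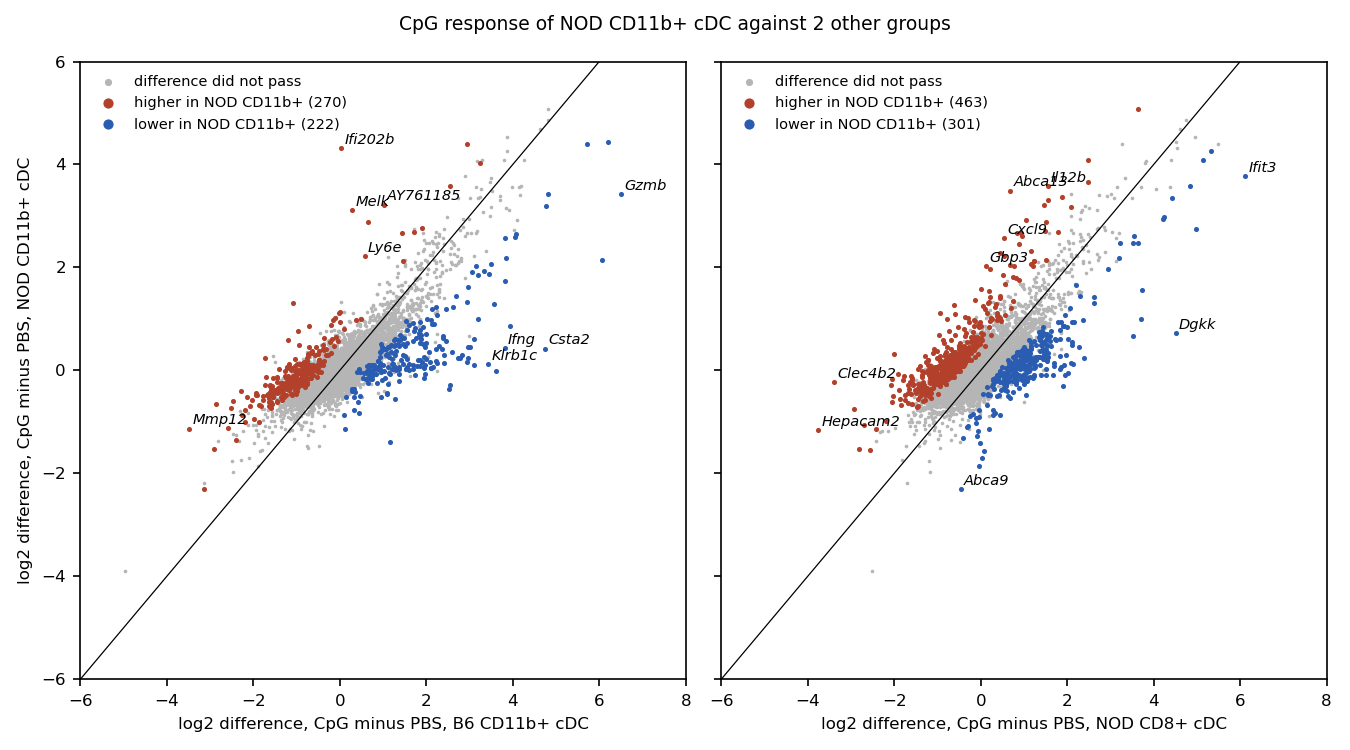
Log2 difference, CpG minus PBS, in NOD CD11b+ cDC (vertical axis) against that in B6 CD11b+ cDC (left) and in NOD CD8+ cDC (right), 1 point per gene tested, with the line of equal differences. Red and blue points are genes whose interaction was called as higher or lower in NOD CD11b+ cDC, 270 and 222 on the left and 463 and 301 on the right.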

How the data were processed

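Gene expression in cDC sorted from the spleens of NOD and B6 mice was measured on 24 arrays in 8 groups of 3, from subset, strain and injection. Per the labels, 5 ng of total RNA was amplified and 2.5 µg of cDNA labelled. The authors deposited log2 expression values, for which the submitters' processing notes name RMA and Partek without versions. The array model given in the labels differs from the platform annotated for these probe sets and is unsettled. Of 35556 probe sets 23410 were listed in the annotation, 21789 of them with a single symbol and 1621 with several, and 12146 are unnamed here. Of several probe sets of a gene (999 genes) the one with the highest mean was used. Tested genes exceeded the median over listed probe sets on 3 or more of 24 arrays.

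In R 4.3.3, limma 3.58.1 fitted 1 mean per group over all 24 arrays, with 16 residual degrees of freedom and eBayes with a trend. The random block used statmod 1.5.0. P-values, two-sided, were adjusted by Benjamini-Hochberg over the genes tested at 0.05. The script was tested on simulated data. Arrays of the same number in the titles deviated together weakly in CpG and PBS groups of NOD CD11b+ cDC (r over genes 0.155 to 0.215). Arrays of different numbers had r from -0.216 to 0.0826. The numbers may thus pair arrays, and the main fit has no term for them. What they stand for is not stated. The groups and lists were chosen with earlier results of these data known. Named genes are the 30 highest and 30 lowest called genes without overlap, 15 at each end of each interaction, up to 8 called and 5 uncalled members of each list, and a fixed set. Genes that lost their CpG call with another setting were dropped after their values were seen, or carry that value. Alternatives were the filter, the choice of probe set, quantile normalization, median centring, array weights, eBayes without trend or robust, fits of the compared groups alone, a block for the replicate number, and each array left out.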

Additional observations from a re-analysis of the deposited data

Results flagged for a closer look

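The CpG difference of NOD CD11b+ cDC differed from that of B6 CD11b+ cDC for 492 genes and from that of NOD CD8+ cDC for 764 genes, by the interaction term of the limma fit. The log2 interaction, NOD minus B6, was 4.29 for Ifi202b, 2.82 for Melk, 2.21 for AY761185, 1.65 for Ly6e, 2.36 for Mmp12 and 2.38 for Inpp4b. Among genes with a lower difference in NOD it was -3.08 for Gzmb, -3.08 for Prf1, -3.37 for Ifng, -3.01 for Thy1, -3.31 for Klrb1c, -3.91 for AA467197 and -4.33 for Csta2. Gzmb and Prf1 rose in both strains and by less in NOD, whereas Ifng, Thy1, Klrb1c and Csta2 did not pass in NOD. Csta2, Ifng and Klrb1c lay under the array medians on all 6 NOD CD11b+ arrays, so their interactions are set against little signal.

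Between the subsets of NOD, CD11b+ minus CD8+, it was 2.04 for Il12b, 2.04 for Cxcl9, 1.90 for Gbp3, 1.83 for Gbp2b, 2.82 for Abca13, 2.05 for Tlr3, 1.84 for Il1b, 3.18 for Clec4b2 and 2.32 for Cd207. Among genes with a lower difference in CD11b+ cDC it was -2.33 for Ifit3, -2.22 for Rtp4, -2.72 for Il23r, -2.04 for Pdcd1lg2, -3.79 for Dgkk, -2.21 for Gclc and -1.84 for Abca9. Tlr3 rose in CD11b+ cDC, while its log2 difference in CD8+ cDC was -0.94 ± 0.22. Clec4b2 and Cd207 had low levels in CD11b+ cDC throughout, so their interactions are set against little signal there.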

How the results depend on the processing

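The direction and the side of the threshold were recomputed under each alternative. With array weights, whose estimation did not converge fully, the counts were 2623 for CpG minus PBS, 1239 for strain by CpG and 2321 for subset by CpG. Fits of only the groups compared called 945 genes for strain by CpG and 303 for subset by CpG, and the replicate number as a fixed block called 766 for strain by CpG. With that block CpG minus PBS called 2103 genes and subset by CpG 1141, and as a random effect 2024, 687 and 1042. A block in a fit of the 6 arrays alone, an alternative chosen after seeing the data, called 2251 genes. Under it Aim2, Ifng and Itgax passed (adjusted p = 0.0429, 0.04 and 0.017). The block changed no other call among the genes named. Leaving out each array in turn gave 1139 to 1836 genes for CpG minus PBS, 297 to 524 for strain by CpG and 479 to 1676 for subset by CpG. In the fit without replicate 1 of CpG-treated NOD CD11b+ cDC (1139 genes), 1119 were among the 1732. With quantile normalization, median centring, eBayes without the trend, robust eBayes, the mean over probe sets, each probe set alone, no filter, a filter of 12 arrays or only the 6 arrays, CpG minus PBS called 1602 to 1937 genes. Of 225 differences and interactions of the genes named, none reversed in the 4164 values recomputed, and 3 lost their call in at least 1 (H2-Eb2, H2-Ob and Ifnk). Since genes that lost their call were mostly dropped from the text, this says nothing of the stability of other genes. In addition, 6 that had not passed did in at least 1 alternative, namely Aim2, Cd80, Ifng, Itgax, Myd88 and Unc93b1 (Cd80 and Unc93b1 with array weights only). Of 1098 recomputed list medians 998 moved by less than the spread between arrays, and the 100 that moved by more belong to 44 of the 61 lists. Signal over background limits the low genes, and 3 arrays per group limit the precision; the causes of these shifts were not tested.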

Other observations

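Genes outside the lists described above also stood at both ends of the response. Among those that rose, Nt5c3, which encodes a pyrimidine nucleotidase, rose by 3.39 ± 0.19 (log2), and Ifi214, which resembles the Ifi200 genes, by 4.08 ± 0.23. Abca13 had log2 levels of 8.72, 9.25 and 9.15 after CpG, against 5.16, 5.35 and 6.14 after PBS. Among those that fell, Serpinb10, which encodes a serine protease inhibitor of blood cells, had log2 levels of 4.60, 4.21 and 5.18 after CpG, against 6.50, 7.27 and 6.79 after PBS. It fell by 2.19 ± 0.31 (adjusted p = 1.58e-05). Clec4g, a lectin gene, had 5.39, 5.13 and 5.40 after CpG, against 7.53, 7.16 and 7.18 after PBS (log2 levels), a difference of -1.98 ± 0.22. Emb, which encodes embigin, a cell adhesion protein, fell by 1.76 ± 0.25 (log2), and Trf, the iron carrier transferrin, by 1.74 ± 0.16. Map2k6, a kinase gene upstream of p38, fell by 1.53 ± 0.16, and Casp6, a caspase gene, by 1.41 ± 0.22 (log2). S100a10, the partner of annexin A2, fell by 1.26 ± 0.29 (log2), and Selenop, the plasma selenium carrier, by 1.24 ± 0.27.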
